A study of Mus musculus with 20 samples.

Results

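Of the 22734 genes counted in the developing mouse cochlea and superior olivary complex (SOC, the group of auditory brainstem nuclei), 54 took opposite courses between birth and the age after hearing onset. Their transcript levels were higher at postnatal day (P) 16 than at P0 in the SOC and lower at P16 than at P0 in the cochlea. They were chosen by this pattern, on CPM, the counts of a gene scaled to the total of its library. A gene had to reach a mean of 2 CPM in the SOC at P16 and in the cochlea at P0, its lowest SOC library at P16 had to exceed 1.5 times its highest SOC library at P0, and its lowest cochlea library at P0 had to exceed 1.5 times its highest cochlea library at P16. Of the 12271 genes with both mean levels, 1085 (8.84%) met the SOC condition and 1716 (14.0%) met the cochlea condition. The 54 genes that met both were 0.44% of the 12271, 4.98% of those that met the SOC condition and 3.15% of those that met the cochlea condition. With the organs exchanged the same rule found 117 genes, and with the same ratios 574 genes were higher and 792 lower at P16 in both organs. All values of P0 and P16 are therefore given below as a description. Where calls of the change from P0 to P16 are counted for these genes, the rule had fixed their direction and favoured them, so they support nothing.

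RNA-seq was carried out on wild-type, untreated mice of both sexes at embryonic day (E) 16, P0 and P16. The cochlear sensory epithelium gave 3 libraries at each age, from pooled inner ears of C57BL/6JOlaHsd mice, and the SOC gave 4, 4 and 3 libraries, from pooled C57Bl6/J animals. SOC tissue was cut on a cryostat from frozen whole heads at E16 and from brains taken out of the skull at P0 and P16. Library totals ran from 20843679 to 33109083 counts. The organs also differed in substrain, laboratory, RNA and library kits and sequencer, so an organ difference at a single age cannot be told apart from these. A P16 against P0 change within an organ does not carry these organ differences. In the SOC, however, P16 animals were killed with carbon dioxide and then decapitated, whereas P0 animals were decapitated only. P16 pools of the SOC also held fewer animals than P0 pools. In tissue RNA, fewer cells of a type and less RNA per cell cannot be told apart.

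From P0 to P16 the cochlea and the auditory brainstem both pass from a silent to a hearing stage. In the brainstem, oligodendrocytes wrap axons in compact myelin, astrocytes take up glutamate released at synapses, and neurons replace early glutamate receptor subunits with mature ones. In the cochlea, hair cells and supporting cells acquire their adult form while Schwann cells myelinate the spiral ganglion neurons, so the myelin of the ear and that of the brain come from different cells. The 54 genes were all protein coding and lay on 19 chromosomes. Only 2 pairs of them were chromosomal neighbours within 2 Mb, Casq2 and Tspan2 588 kb apart on chromosome 3 and Apln and Igsf1 1748 kb apart on the X chromosome. None had over 10% of its exon sequence overlapped by an exon of the opposite strand. Median transcript GC content was 49.1% (34.3 to 62.0%), against 49.4% over all genes tested at E16, and median exon length was 4457 bases against 3416. The genes tested at E16 were not limited to those that reached the 2 CPM means. The part of that choice in these medians was not tested.

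Promoter windows of 4 genes show what the sequence upstream of these genes looked like, chosen because their genes had the largest SOC rise counted in every library (Ppp1r14a), the largest cochlear ratio of P0 to P16 over all libraries (Rasd2), the highest cochlear level at P0 (Creb3l2) and a downstream start of the thyroid hormone receptor gene (Thrb). Each runs 5′ to 3′ on the gene's strand, from 250 bases before to 50 after a RefSeq start site, in build GRCm38.p6. Capitals mark matches, on either strand, to any of 11 motifs searched. The windows lie at chr7:29289070-29289369 (plus strand), chr8:75213694-75213993 (plus), chr6:37442099-37442398 (minus) and chr14:17981394-17981693 (plus).
Ppp1r14a: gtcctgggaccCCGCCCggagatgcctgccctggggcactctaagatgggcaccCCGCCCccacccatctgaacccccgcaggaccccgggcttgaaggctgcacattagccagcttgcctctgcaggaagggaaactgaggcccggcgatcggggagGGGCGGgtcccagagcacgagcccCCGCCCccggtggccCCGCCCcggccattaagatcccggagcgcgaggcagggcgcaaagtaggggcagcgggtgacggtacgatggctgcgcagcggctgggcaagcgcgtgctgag
Rasd2: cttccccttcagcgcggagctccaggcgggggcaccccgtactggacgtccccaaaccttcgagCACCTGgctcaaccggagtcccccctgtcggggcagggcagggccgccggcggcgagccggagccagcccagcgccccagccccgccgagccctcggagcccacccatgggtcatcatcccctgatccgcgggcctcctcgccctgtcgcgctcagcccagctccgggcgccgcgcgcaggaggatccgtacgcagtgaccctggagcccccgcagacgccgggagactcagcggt
Creb3l2: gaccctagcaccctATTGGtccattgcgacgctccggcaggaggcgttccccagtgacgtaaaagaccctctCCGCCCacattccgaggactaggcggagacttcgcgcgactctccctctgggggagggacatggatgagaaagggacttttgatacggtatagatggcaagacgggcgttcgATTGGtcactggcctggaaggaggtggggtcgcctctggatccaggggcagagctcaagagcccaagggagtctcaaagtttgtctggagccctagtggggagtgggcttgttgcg
Thrb, downstream start: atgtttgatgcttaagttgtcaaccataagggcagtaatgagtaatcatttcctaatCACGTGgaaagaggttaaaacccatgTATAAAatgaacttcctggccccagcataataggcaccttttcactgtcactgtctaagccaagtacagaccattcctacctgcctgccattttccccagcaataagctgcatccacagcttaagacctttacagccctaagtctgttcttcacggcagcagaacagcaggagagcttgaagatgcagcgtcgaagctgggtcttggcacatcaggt
The RefSeq table held 66 promoters for 43 of the 54 genes. The G-rich box GGGCGG, bound by Sp factors, was in 57.6% of these 66 windows and in 35.7% of all 32851 windows of the same length. TATAAA was in 13.6% of both, CCAAT in 37.9% and 37.4%, and CAGGTG in 21.2% and 20.2%. CACGTG was in 10.6% against 7.15%, ACAATGG in 6.06% against 3.66%, and TGACGTCA in 3.03% against 1.79%. Lower shares than over all windows were found for CAGCTG (9.09% against 16.3%), GGAAGTG (4.55% against 11%), TTCNNNGAA (4.55% against 8.30%) and TGACCTTTG (0 against 0.478%). These shares describe letters in a window, several windows belong to the same gene, some starting a few bases apart, and no occupancy was measured. The 32851 windows were not limited to genes that reached the 2 CPM means, as the members were. The part of that choice in these shares was not tested.

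The mean SOC level at P16 was 1.67 (Prom1) to 41.9 (Ppp1r14a) times that at P0 in the genes other than Tnni3, for which no ratio is given because most of its SOC libraries at P0 were at 0. The median over all 54 was 3.14. The mean cochlear level at P0 was 1.67 to 19.5 times that at P16, with a median of 2.91. By mean CPM the cochlea was above the SOC in 39 of the 54 genes at P0 and in 5 at P16, namely 9430076C15Rik, Arhgef19, Creb3l2, Pstpip1 and Thrb. The median ratio of SOC to cochlea was 0.397 at P0 and 4.05 at P16. The rule raises this ratio from P0 to P16 in every member, so nothing is read from it. Which organ stood higher at either age cannot be told apart from the kits and laboratories. A gene was called at an adjusted p under 0.01 and a fold over 2.5, the limits of the study, and with no overlap of libraries between the ages, which was put here in place of the study's criterion of a consistent direction over replicates. The rule fixes the direction and the separation of the libraries and so favours such calls. Of the 54, 51 passed in the SOC and 31 in the cochlea, 30 of them in both, and nothing is read from these counts. Over all genes tested, 8.08% were called higher and 9.03% lower at P16 than at P0 in the SOC, and 14.4% higher and 10.5% lower in the cochlea.

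**Figure D1:**
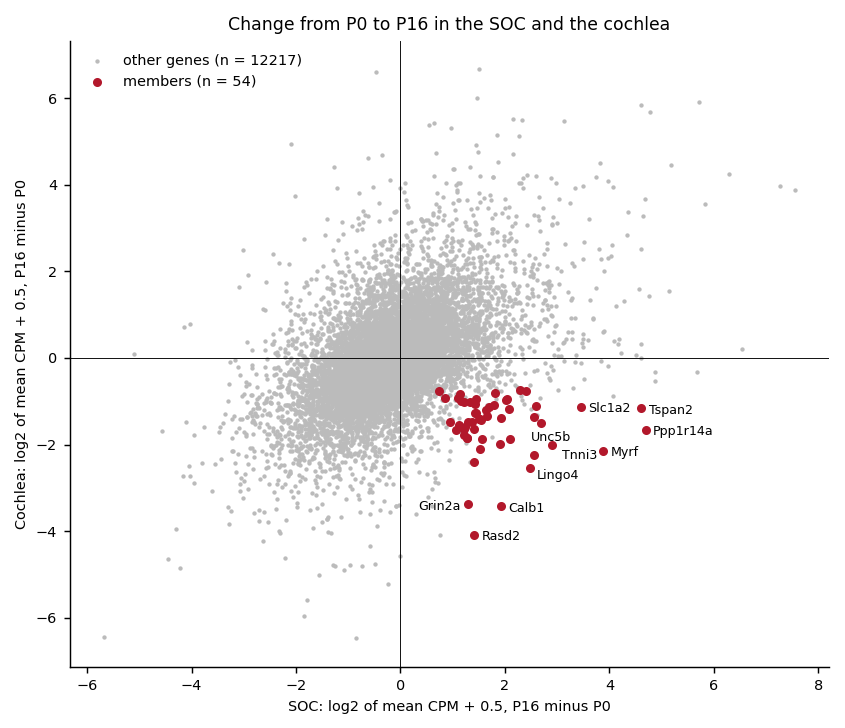
Change in mean CPM from P0 to P16 in the SOC (horizontal axis, log2 of mean CPM + 0.5) and in the cochlea (vertical axis, same scale) for the 12271 genes that reached the 2 CPM means, with the 54 members in red and the rest in grey. The members fill the lower right of the plot because the rule placed them there, with Ppp1r14a, Tspan2 and Myrf farthest to the right and Rasd2, Calb1 and Grin2a lowest.

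The margins of the rule were narrow for some genes. Just inside were Kcnab1, with a lowest P0 library in the cochlea 1.52 times the highest P16 library, Prom1 with 1.53 in both organs, and Atp10b with 1.55 in the cochlea. Just outside were Traf6, with 1.47 in the SOC and 1.49 in the cochlea, Shisa4 with 1.47 in the SOC and Cd83 with 1.45 in the SOC.

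Myrf and Tspan2 stood on a list of oligodendrocyte markers. Myrf (chr19:10208272-10240748, build mm10, minus strand) encodes the transcription factor that oligodendrocytes need to switch on the myelin genes. Its CPM in the SOC was 1.08, 1.62, 1.23 and 1.29 at E16, then 1.68, 3.42, 4.92 and 1.06 at P0, then 38.4, 43.1 and 61.5 at P16. In the cochlea it was 20.4, 25.6 and 21.05 at E16, 23.1, 32.6 and 33.1 at P0, and 4.99, 7.46 and 6.54 at P16. At E16 and P0 every cochlear library lay above every SOC library, and at P16 every SOC library lay above every cochlear one. The mean in the SOC was thus 47.7 ± 12.2 (SD, n = 3) at P16 against 2.77 ± 1.75 (n = 4) at P0, a ratio of 17.2, while the cochlear mean went from 29.6 ± 5.62 to 6.33 ± 1.25 (n = 3 each).

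Tspan2 (chr3:102734529-102801513, plus strand), a membrane protein of the myelinating oligodendrocyte, had SOC values of 16.8, 24.2, 14.9 and 34.04 CPM at E16, 62.2, 58.6, 73.8 and 63.9 at P0, and 1756, 1727 and 1278 at P16. Cochlear values were 20.1, 15.7 and 17.0 at E16, 21.4, 13.2 and 15.5 at P0, and 7.67, 8.25 and 5.59 at P16. The SOC level was already called higher at P0 than at E16 (log2 fold change 1.55 ± 0.26 SE, edgeR quasi-likelihood adjusted p = 0.000461), and at P16 the SOC mean was 221 times the cochlear mean. Ppp1r14a (chr7:29289308-29293801, plus strand), an inhibitor of myosin phosphatase that was put beside this pair after its values were seen, went from 0.720, 1.06, 0.886 and 0.492 CPM in the SOC at P0 to 30.4, 32.6 and 36.4 at P16. In the cochlea it went from 10.5, 9.73 and 8.85 at P0 to 3.17, 3.08 and 1.94 at P16, so that the libraries of the ages did not overlap in either organ.

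On that list of 24 oligodendrocyte markers, which counts both members the rule chose, 21 were called higher at P16 than at P0 in the SOC and none lower (median log2 fold change 5.41, against -0.07 over all genes tested). In the cochlea 20 were tested, of which 12 were called higher and only Myrf lower (median 2.63 against 0 over all genes). In the cochlea the structural myelin genes Mbp (log2 fold change 4.24, adjusted p = 1.62e-08) and Mag (4.74, adjusted p = 4.14e-08) rose by edgeR's quasi-likelihood test. Of 17 genes of a Schwann cell list, which overlaps with the oligodendrocyte list, 12 were called higher in the cochlea and 1 lower. Summed over the oligodendrocyte list, the SOC went from 707 to 1294 CPM per library at P0 to 50661 to 54431 at P16, and the cochlea from 710 to 854 to 2804 to 3438. The oligodendrocyte genes Opalin, Ermn, Olig1 and Olig2 did not reach the detection limit in the cochlear fit.

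**Figure D2:**
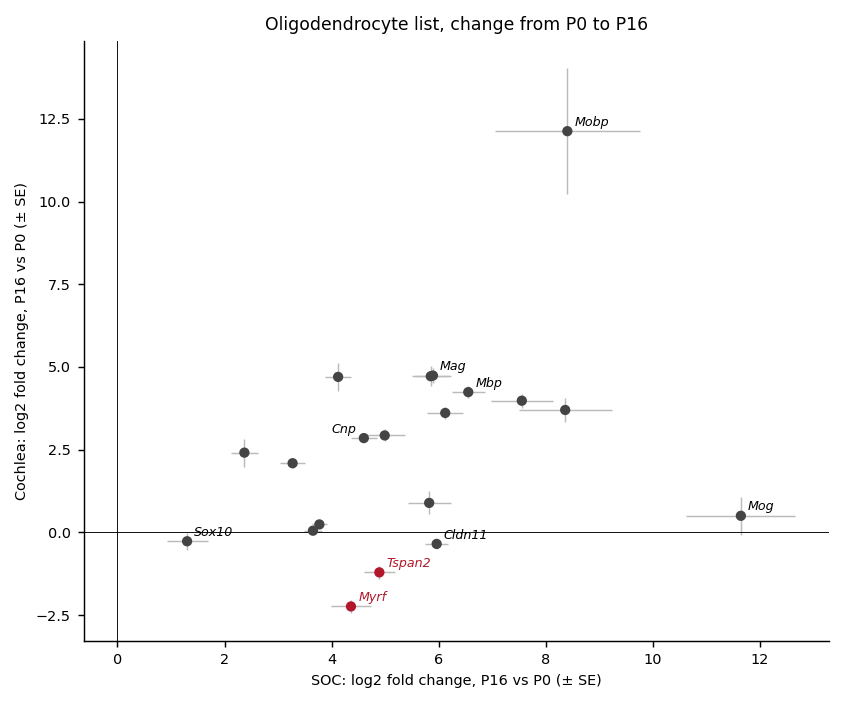
Log2 fold change from P0 to P16 in the SOC (horizontal axis) and in the cochlea (vertical axis) of the 20 oligodendrocyte list genes tested in both organs, with standard errors from edgeR as bars and some of the genes labelled. Myrf and Tspan2, in red, are the members. All 20 genes lie right of 0, and Myrf at -2.24 and Tspan2 at -1.21 are the lowest in the cochlea.

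Genes of glutamate handling followed. Slc1a2 (chr2:102658659-102790784, plus strand) encodes the main glutamate uptake transporter of astrocytes. Its SOC libraries read 93.7, 165, 119 and 111 CPM at E16, 237, 303, 382 and 209 at P0, and 3122, 3409.5 and 2791 at P16. Cochlear libraries read 155, 134 and 145 at E16, 225, 209 and 172 at P0, and 93.7, 96.6 and 85.5 at P16. At E16 the organs overlapped, and at P16 the lowest SOC library was far above the highest cochlear one. The SOC mean at P16 was 11 times that at P0, and the cochlear mean at P0 was 2.20 times that at P16. Of 30 astrocyte list genes, Slc1a2 among them, 15 were called higher and 1 lower at P16 than at P0 in the SOC. In the cochlea 10 of 29 were called higher and 2 lower. The genes called higher there included Kcnj10 (3.69, adjusted p = 1.54e-08), an inward rectifier of glia and of the stria vascularis, and Aqp4 (4.32, adjusted p = 6.79e-08), a water channel, by the same edgeR test. Per kilobase of exon, Slc1a2 stood at 237 CPM in the SOC at P16, below the 334 of Tspan2 and above all other members.

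Grin2a (chr16:9567898-9995560, minus strand) encodes the GluN2A subunit that joins NMDA receptors as synapses mature. Its CPM in the SOC was 14.2, 24.0, 16.6 and 20.2 at E16, 37.7, 42.8, 57.7 and 35.9 at P0, and 97.5, 118 and 107 at P16. The cochlea had 15.6, 15.9 and 14.8 at E16, 19.2, 20.1 and 19.6 at P0, and 3.32, 0.634 and 0.357 at P16. Cochlear replicate 1 at P16 stood well above the other two, and without it the cochlear mean at P16 was 0.495 in place of 1.44 and the ratio of P0 to P16 was 39.6 in place of 13.6. Lists that hold members count them among the genes called, so these counts are not independent of the rule. Of 33 glutamatergic list genes, Grin2a among them, 4 were called higher and 2 lower at P16 than at P0 in the SOC, and of 31 in the cochlea 10 were called higher and 10 lower. The vesicular transporter Slc17a7 was called higher in both organs (2.57 in the SOC, adjusted p = 5.86e-07, and 5.18 in the cochlea, adjusted p = 4.61e-09). The embryonic subunit gene Grin2b was called lower in the cochlea (-2.17, adjusted p = 0.000549) and not called in the SOC (-0.49, adjusted p = 0.184), both by edgeR.

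Genes of neuronal signalling and calcium handling came next. Rasd2 (chr8:75213944-75224113, plus strand), a small GTPase known as Rhes from the striatum, had the largest ratio of mean cochlear levels at P0 to P16 of all 54 when every library was counted, although Grin2a passed it without cochlear replicate 1 at P16 (39.6). Its cochlear CPM was 21.5, 24.8 and 20.4 at E16, 55.02, 58.6 and 69.1 at P0, and 3.59, 2.72 and 3.05 at P16. In the SOC it was 8.11, 7.48, 7.30 and 4.99 at E16, 7.87, 9.39, 8.55 and 4.69 at P0, and 19.1, 18.9 and 25.1 at P16. The cochlear level was called higher at P0 than at E16 (log2 fold change 1.55 ± 0.14 SE, adjusted p = 3.49e-05 by edgeR). Its cochlear mean at P0 was 19.5 times that at P16. The rule favours a high cochlear level at P0, so no rise to birth is read from this. Rasd2 is on the hair cell list, where of 25 genes tested in the cochlea 5 were called higher and 4 lower from P0 to P16, with Rasd2 among the 4. Those called lower included Atoh1, the early hair cell determinant, and Lhx3.

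Calb1 (chr4:15881264-15908064, plus strand) encodes the cytosolic calcium buffer calbindin. Cochlear libraries had 67.5, 51.6 and 61.6 CPM at E16, 96.5, 55.4 and 77.7 at P0, and 7.74, 6.61 and 5.55 at P16. SOC libraries had 17.6, 12.5, 14.8 and 24.5 at E16, 35.5, 26.8, 27.9 and 46.7 at P0, and 160.0, 113 and 121 at P16. At E16 and P0 every cochlear library lay above every SOC library. The E16 difference was not called after an adjustment for transcript GC content, given below. At P16 the SOC mean was 19.8 times the cochlear mean. Pvalb (parvalbumin) was called higher at P16 in both, at 5.01 in the SOC (adjusted p = 2.78e-08) and 3.30 in the cochlea (adjusted p = 2.54e-07), and Calb2 (calretinin) was called higher in the cochlea (5.32, edgeR adjusted p = 1.54e-08). Of the calcium-binding list, Calb1 and Necab3 among those called, 6 of 20 were called higher and 2 lower in the SOC, and 9 of 22 higher and 5 lower in the cochlea. Necab3, a neuronal calcium-binding protein and the other member on that list, had means of 8.88 ± 1.08 (n = 4) and 23.8 ± 4.76 (n = 3) at P0 and P16 in the SOC and 5.93 ± 1.16 and 1.79 ± 0.253 (n = 3 each) in the cochlea.

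Lingo4 (chr3:94398517-94404501, plus strand), a leucine-rich repeat and immunoglobulin domain membrane protein, had SOC values of 0.422, 0.969, 0.703 and 0.387 CPM at E16, 1.97, 2.22, 2.30 and 0.983 at P0, and 12.4, 12.1 and 13.7 at P16. Cochlear values were 8.18, 9.19 and 7.003, then 16.8, 23.0 and 21.5, then 2.87, 2.96 and 3.41. Lingo4 alone among the 54 was called higher at P0 than at E16 in both organs. The changes were 1.61 ± 0.32 SE in the SOC (adjusted p = 0.00154) and 1.43 ± 0.17 SE in the cochlea (adjusted p = 0.000141) by edgeR. A high cochlear level at P0 is favoured by the rule, so nothing is read from the cochlear change. Kcnab1, a cytosolic beta subunit of voltage-gated potassium channels, stood at 15.8, 14.1, 18.3 and 21.3 CPM in the SOC at P0 and at 105, 107 and 72.5 at P16, with a small cochlear change from 21.02 ± 1.33 to 12.2 ± 0.700 (n = 3 each). Its partner genes Kcna1 and Kcna2 were called higher at P16 in both organs. Prkcq, a protein kinase C isoform, went from 20.8 ± 3.17 (n = 4) to 60.9 ± 3.01 (n = 3) in the SOC and from 28.0 ± 3.53 to 6.10 ± 0.605 in the cochlea. Ddc, the decarboxylase that makes dopamine and serotonin, went from 29.4 ± 4.73 to 73.3 ± 2.36 in the SOC and from 2.08 ± 0.488 to 0.423 ± 0.130 in the cochlea, the lowest cochlear level at P16 of all members by CPM.

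**Figure D3:**
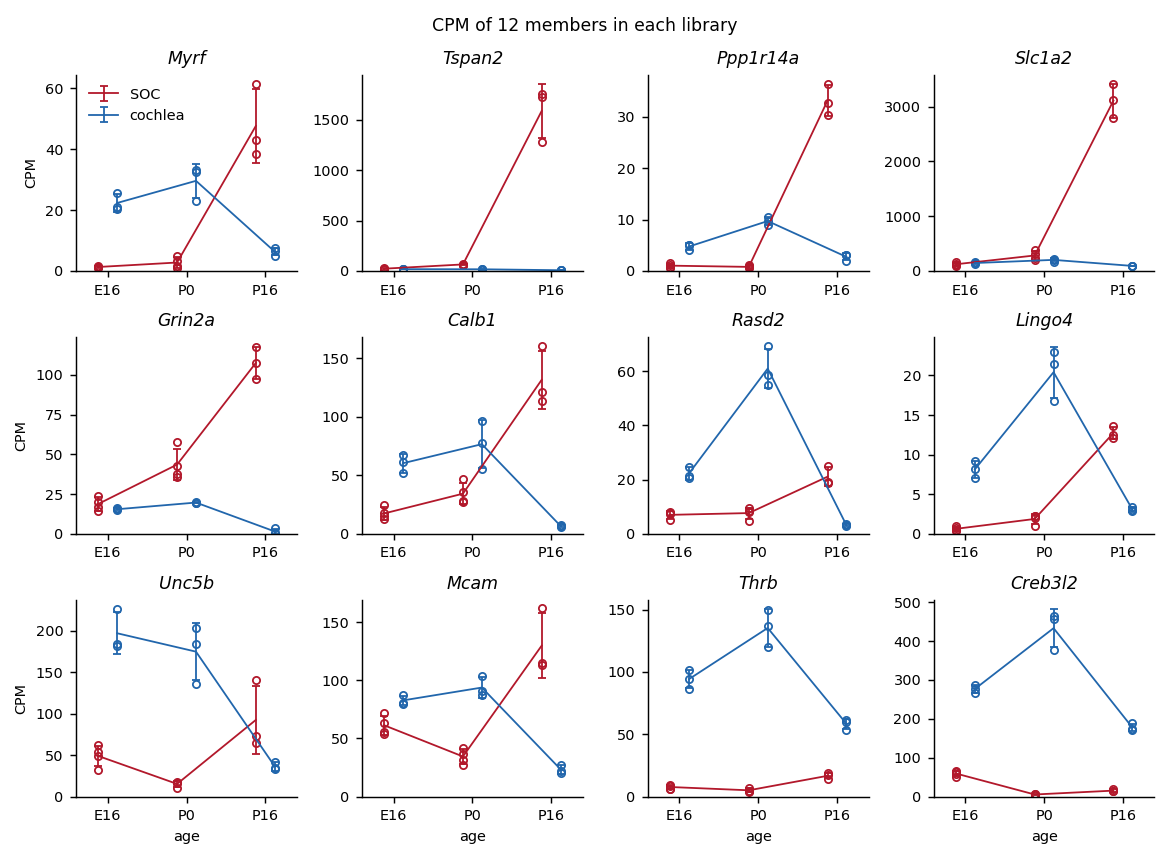
CPM of 12 members in every library at E16, P0 and P16, with SOC libraries in red and cochlear libraries in blue. Circles are libraries, lines join group means and bars are the SD (SOC n = 4, 4 and 3, cochlea n = 3 each). In Myrf, Ppp1r14a, Calb1, Rasd2, Lingo4, Unc5b and Mcam the lines cross after P0. Thrb and Creb3l2 stayed higher in the cochlea at all 3 ages.

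Receptors and adhesion molecules formed a further group. Unc5b (chr10:60762593-60831581, minus strand), a netrin receptor of axons and vessel tips, had cochlear values of 181, 226 and 183 CPM at E16, 136, 184 and 204 at P0, and 32.9, 34.04 and 42.1 at P16. Its SOC values were 48.4, 53.3, 61.6 and 31.9 at E16, 17.8, 16.4, 15.996 and 10.5 at P0, and 64.1, 72.9 and 139.9 at P16. The SOC level was called lower at P0 than at E16 (-1.64 ± 0.24 SE, edgeR adjusted p = 0.000204). The rule favours a low SOC level at P0, so no dip at birth is read from this. On the axon guidance and adhesion list Unc5b was the only one of the 54, and, with it counted, 6 of 62 genes were called higher and 11 lower from P0 to P16 in the SOC, against 11 and 13 of 61 in the cochlea.

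Mcam (chr9:44134469-44142727, plus strand), a cell adhesion molecule of vessels and pericytes, had SOC values of 72.0, 55.8, 63.6 and 54.03 CPM at E16, 36.8, 31.8, 41.9 and 27.4 at P0, and 113, 115 and 162 at P16, and cochlear values of 80.7, 87.6 and 80.1, then 87.0, 104 and 90.7, then 27.5, 20.6 and 22.03. Apln, the ligand of the apelin receptor and a product of sprouting vessel cells, stood at 7.65 ± 2.18 (n = 4) and 47.5 ± 8.11 (n = 3) in the SOC at P0 and P16. In the cochlea Apln declined at each step, from 13.5 ± 1.98 at E16 to 4.26 ± 0.780 at P0 and 1.36 ± 0.269 at P16 (n = 3 each), and the first step was called (-1.58 ± 0.19 SE, edgeR adjusted p = 0.000143). Beside Mcam and Apln, the 26 genes of a vascular and pericyte list were called higher at P16 in 7 cases in the SOC and 6 in the cochlea, and none was called lower in either organ. Summed levels of that list were 1326 to 1651 CPM at P0 and 2104 to 2485 at P16 in the SOC, and 1261 to 1495 and 1629 to 1997 in the cochlea, so the summed list was higher at P16 in every library of both organs.

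Ptprd, a receptor phosphatase that organises synapses, came after Slc1a2 and Tspan2 in SOC CPM at P16, with 961, 958 and 784 CPM against 357, 374, 399 and 484 at P0. In the cochlea it had 275, 266 and 240.5 at P0 and 145, 115 and 130.2 at P16. Igsf1, an immunoglobulin superfamily membrane protein, and Gpc5, a heparan sulfate proteoglycan of the glypican family, climbed in the SOC at each step. Gpc5 rose from 6.69 ± 1.61 at E16 to 28.9 ± 2.35 at P0 (log2 fold change 2.14 ± 0.18 SE, adjusted p = 3.33e-06) and stood at 92.5 ± 8.48 at P16. Igsf1 rose from 17.8 ± 2.35 to 48.2 ± 12.5 (1.47 ± 0.18 SE, adjusted p = 5e-05 by edgeR) and stood at 122 ± 21.7 at P16 (n = 4, 4 and 3). Prickle1, a core planar cell polarity protein, had 29.9 ± 2.83 and 63.2 ± 2.69 at P0 and P16 in the SOC and 56.5 ± 4.01 and 17.5 ± 1.92 in the cochlea.

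Regulators of transcription included members that stayed higher in the cochlea. Creb3l2 (chr6:37327255-37442146, minus strand), a membrane-bound transcription factor of the secretory pathway, had the highest cochlear level at P0 of the 54, with 378, 465 and 457 CPM, after 265, 288 and 277 at E16 and before 171, 173 and 189 at P16. In the SOC it read 50.7, 66.7, 62.8 and 57.0 at E16, 3.98, 6.06, 6.51 and 4.42 at P0, and 13.8, 13.2 and 18.6 at P16. The SOC level at P16 was thus well below that of E16 (-1.67 ± 0.18 SE, adjusted p = 5.12e-06 by edgeR), although it was above that of P0. Thrb (chr14:17660261-18038090, plus strand), the thyroid hormone receptor beta needed for hearing, read 102, 86.7 and 94.4 CPM in the cochlea at E16, 149.6, 119.7 and 137 at P0, and 60.0, 53.8 and 61.3 at P16. In the SOC it read 6.42, 8.82, 6.42 and 8.98, then 3.79, 4.35, 4.74 and 7.15, then 14.4, 18.6 and 16.9. Tox2, a high mobility group box protein, stood at 1.27 ± 0.375 (n = 4) and 3.81 ± 0.579 (n = 3) in the SOC and 10.9 ± 2.53 and 2.67 ± 0.631 in the cochlea at P0 and P16.

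Some members are known from contractile tissue and matrix. Tnni3, the inhibitory troponin of heart muscle, had 4.42, 3.40 and 3.85 CPM in the SOC at P16. At E16 and P0 it was 0 in SOC replicates 1 to 3 and 0.387 and 0.34 in replicate 4. Those zeros appeared to come from genes missing in a table that had been joined. There a 0 allows up to 20 counts or 0.88 to 0.96 CPM. In the cochlea it had 4.63, 5.54 and 5.55 at P0 and 0.869, 1.12 and 0.793 at P16. Casq2, the cardiac calsequestrin, Tpm2, a tropomyosin, Aspn, a small matrix proteoglycan, and Susd5, a sushi domain protein, had their highest SOC level at E16, with 49.4, 22.7, 25.6 and 36.5 CPM for Casq2, 150.3, 66.5, 78.5 and 77.2 for Tpm2, 128, 123, 66.8 and 161 for Aspn and 105, 79.0, 77.4 and 49.4 for Susd5. At P0 these stood at 0.963 ± 0.260, 4.50 ± 0.989, 1.19 ± 0.202 and 6.30 ± 0.923, and at P16 at 5.42 ± 0.701, 10.4 ± 0.413, 4.49 ± 1.21 and 17.5 ± 5.05. Skeletal muscle genes, 12 of a list in the table, summed to 1140 to 2340 CPM per SOC library at E16, 36.2 to 49.1 at P0 and 80.3 to 84.4 at P16, and mesenchyme genes to 12085 to 19293, 641 to 1026 and 446 to 737. Their part in the E16 values was not tested. Skeletal muscle genes summed to 34.5 to 113 CPM in the cochlea at E16, 36.7 to 217 at P0 and 294 to 306 at P16.

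Among metabolic and transport genes, Psat1, which makes serine, had 96.6 ± 8.80 and 261 ± 20.6 CPM in the SOC and 154 ± 27.3 and 72.8 ± 10.7 in the cochlea at P0 and P16. The aspartate-glutamate carrier Slc25a13, the glutathione transferase Gstm7, the acyltransferase Agpat4, the flippase Atp10b, the iron oxidase Heph, the insulin-regulated glucose transporter Slc2a4 and Ggact had SOC ratios of P16 to P0 of 1.85, 1.99, 2.35, 6.76, 2.47, 3.09 and 2.19, and cochlear ratios of P0 to P16 of 1.94, 2.93, 2.06, 2.24, 3.71, 2.88 and 1.93. Among genes of the cytoskeleton and its GTPases, Eml1, a microtubule-binding protein, had 74.2 ± 13.1 and 200.3 ± 51.6 CPM in the SOC and 66.0 ± 2.28 and 27.2 ± 2.79 in the cochlea. Plekhg1, an exchange factor of small GTPases, had 21.01 ± 1.59 and 91.4 ± 5.20 in the SOC and 202 ± 25.1 and 55.01 ± 8.12 in the cochlea, and Rassf8 had 20.4 ± 0.677 and 78.3 ± 3.17 against 184 ± 5.47 and 70.5 ± 9.83. Arhgef19, Rtkn2, Mreg and Pstpip1 had SOC ratios of 3.33, 3.04, 3.497 and 4.13 and cochlear ratios of 3.16, 3.56, 2.26 and 2.73. The other genes were Cnksr3, Dusp10, Rnf122, St6galnac3, Olfml1, Slc35f3, Tmc7, Tmem141, Prom1 and those known only by clone or predicted-gene names, 9430076C15Rik, D16Ertd472e and Gm2115, with SOC ratios from 1.67 (Prom1) to 7.11 (Gm2115) and cochlear ratios from 1.67 (Cnksr3) to 3.61 (St6galnac3).

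**Figure D4:**
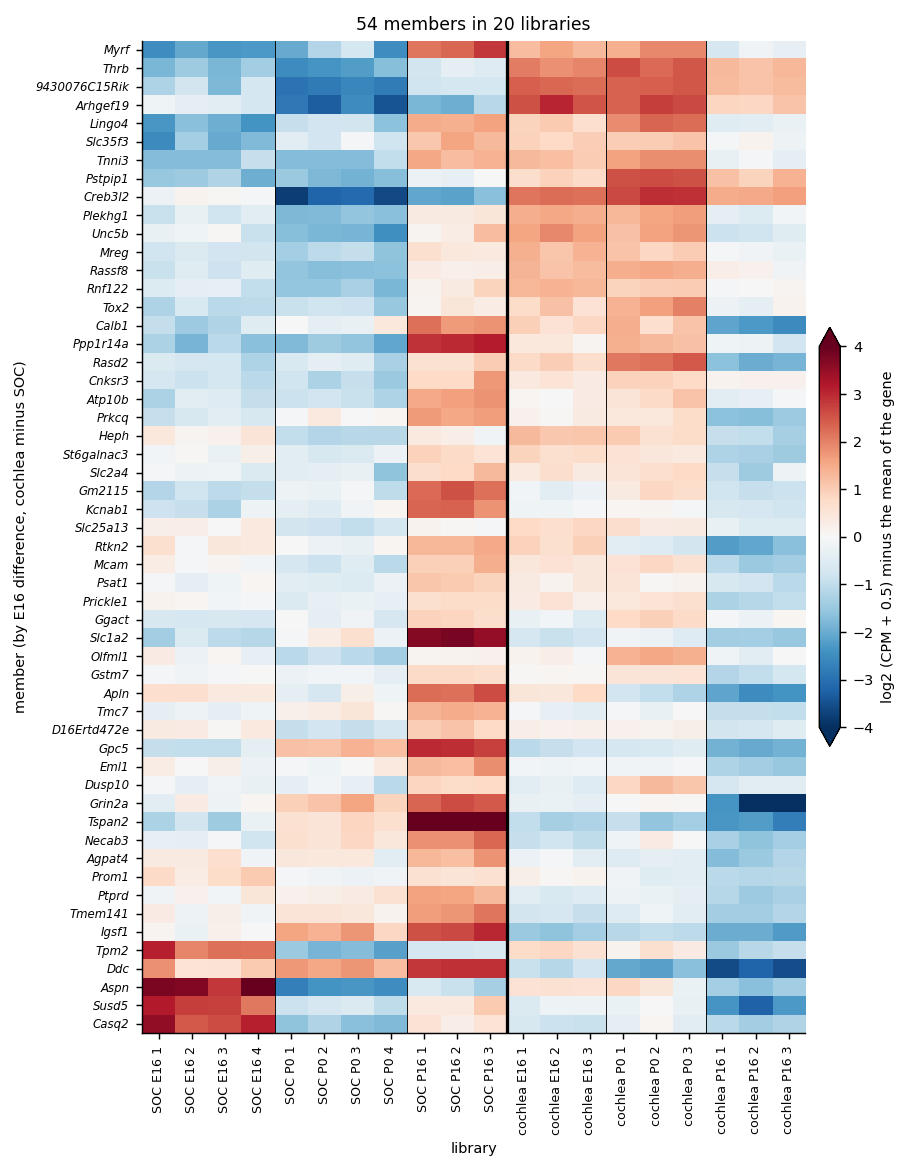
Level of each of the 54 members (rows, ordered by the E16 difference) in each of the 20 libraries (columns), as log2 of CPM + 0.5 minus the gene's mean over all libraries, with colours limited to ± 4. SOC libraries at P16 are the reddest of the SOC for 45 genes by mean, whereas 9 genes, Casq2, Susd5, Aspn, Tpm2 and Creb3l2 among them, are highest in the SOC at E16.

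The age E16 was not used by the rule, so it shows where the members stood before birth. By mean level, 37 of the 54 were higher in the cochlea at E16. Of the 54, 18 were called higher in the cochlea (33.3%), against 32.9% of the 21912 genes tested. In the SOC 6 of the 54 were called higher (11.1%), against 11.1% of all genes. The median log2 difference was 0.52 over the members and 0.50 over all genes. These shares are near the background and give no result about the members as a set. Single genes did differ. By edgeR's quasi-likelihood test the largest differences toward the cochlea were in Tnni3 (log2 fold difference 4.94 ± 0.78 SE, adjusted p = 1.56e-05, and 2.01 with the joined-table zeros set to 20 counts), Myrf (4.09 ± 0.35, adjusted p = 1.67e-08) and Lingo4 (3.70 ± 0.27, adjusted p = 2.63e-09). Toward the SOC they were in Casq2 (-4.09 ± 0.29, adjusted p = 1.53e-09), Susd5 (-3.15 ± 0.27, adjusted p = 1.43e-08) and Aspn (-3.14 ± 0.30, adjusted p = 4.99e-08). All 12 skeletal muscle list genes were also called higher in the SOC at E16 (median -5.84). Of 24 mesenchyme list genes, 6 were called higher in the SOC and 4 in the cochlea. The part of such tissue in the values of Casq2, Susd5 and Aspn was not tested. Thrb was higher in the cochlea by 3.61 ± 0.19 (adjusted p = 6.66e-11), and Creb3l2 by 2.22 ± 0.15 (adjusted p = 7.39e-10). Slc1a2 (0.24 ± 0.19, adjusted p = 0.252), Grin2a (-0.29 ± 0.37, adjusted p = 0.485), Tspan2 (-0.36 ± 0.25, adjusted p = 0.201) and Apln (0.04 ± 0.19, adjusted p = 0.844) were not called at E16. After each library was adjusted for its trend against transcript GC content, a setting chosen after seeing the data, 12 of the 18 calls toward the cochlea were kept, and Calb1 went from 1.78 ± 0.25 to 0.15 ± 0.16 (adjusted p = 0.379), Rasd2 from 1.67 to 1.01, Plekhg1 from 2.09 to 1.25, Rassf8 from 1.91 to 1.08, Rnf122 from 1.91 to 1.07 and Mreg from 2.10 to 1.26.

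**Figure D5:**
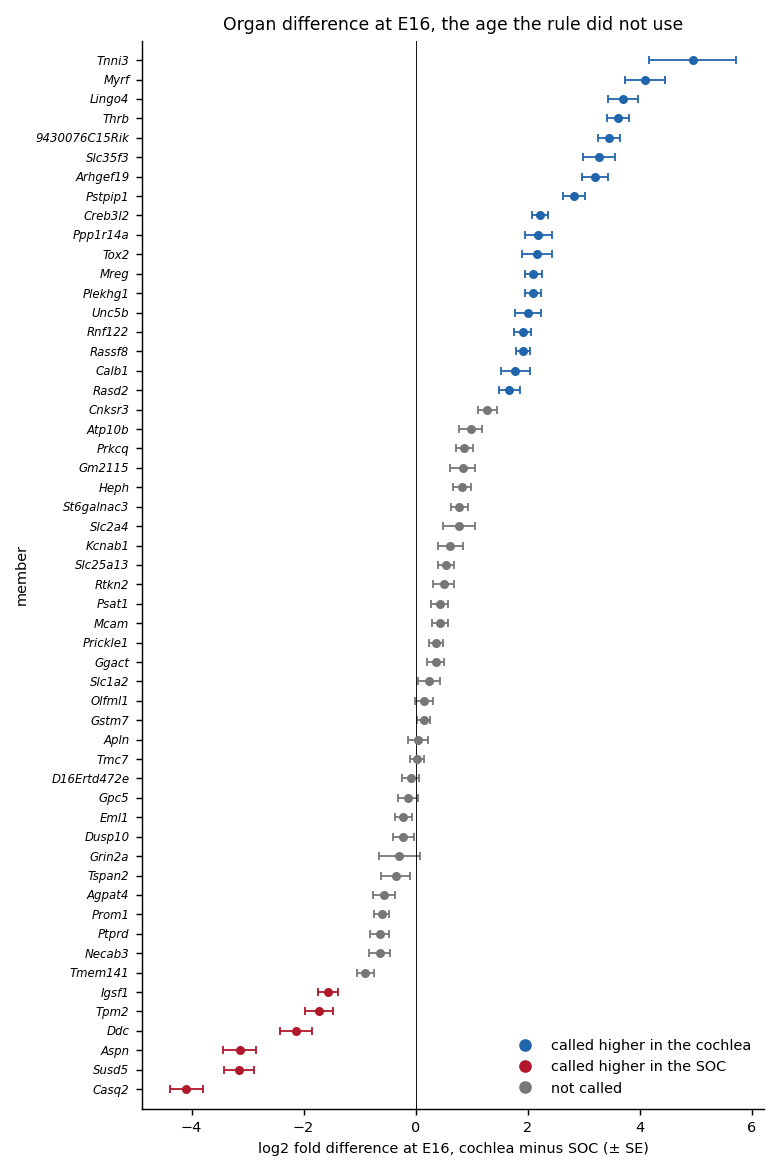
Log2 fold difference between cochlea and SOC at E16 for each of the 54 members, with edgeR standard errors as bars (SOC n = 4, cochlea n = 3). The 18 blue genes were called higher in the cochlea, the 6 red genes higher in the SOC, and the 30 grey genes were not called.

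The comparisons of P0 with E16 share the P0 libraries with the rule. In the SOC 5 were called higher at P0 (Gpc5, Igsf1, Lingo4, Slc35f3 and Tspan2), where 3.32% of all genes were called higher, and 9 lower (9430076C15Rik, Arhgef19, Aspn, Casq2, Creb3l2, Heph, Susd5, Tpm2 and Unc5b), where 6.92% were called lower. In the cochlea 5 were called higher (Dusp10, Lingo4, Olfml1, Pstpip1 and Rasd2), where 4.71% of all genes were, and 2 lower (Apln and Rtkn2), where 3.49% were. In the SOC the lowest of the 3 mean levels was at P0 in 35 genes and at E16 in 19, and in the cochlea the highest was at P0 in 37 genes and at E16 in 17. A low point of the SOC and a high point of the cochlea at birth are favoured by the rule, since both used P0.

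From E16 to P16 the courses were compared with an age the rule did not use, although they share its P16 libraries. In the SOC 36 members were called higher at P16 than at E16, where 12.4% of all genes were called higher, and 5 were called lower (Aspn, Casq2, Creb3l2, Susd5 and Tpm2), where 15.1% were. The part of muscle and mesenchyme RNA at E16 in these 5, here and from E16 to P0, was not tested. The ratio of P16 to E16 ran from 0.0375 for Aspn to 70.7 for Tspan2, with a median of 2.495. In the cochlea 20 were called lower, where 9.59% of all genes were, and none of the 54 was called higher, where 14.8% of all genes were. Pstpip1 and Ggact had mean cochlear levels at P16 of 1.30 and 1.18 times those at E16. Of the 54, 11 were called higher in the SOC and lower in the cochlea over this span, as were 0.311% of all genes tested in both organs. The P16 libraries that chose the members favour this pattern. The 11 were Apln, Calb1, Ddc, Grin2a, Mcam, Mreg, Myrf, Prkcq, Rasd2, Rtkn2 and Tnni3. For Myrf the SOC change was 5.47 ± 0.41 SE (adjusted p = 2.63e-07) and the cochlear change -1.73 ± 0.21 (adjusted p = 2.78e-05) by edgeR. For Calb1 they were 3.22 ± 0.28 (adjusted p = 8.93e-07) and -3.10 ± 0.21 (adjusted p = 3.45e-07), and for Grin2a 2.82 ± 0.21 (adjusted p = 2.36e-07) and -3.35 ± 0.54 (adjusted p = 0.000248). In 31 members the SOC level was not called different between E16 and P0 and was called higher at P16 than at E16, a pattern that 9.83% of all genes tested in the SOC had and that the choice of the P16 libraries favours.

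Libraries of the same group did not always stand together. SOC replicate 3 at P16 was the highest of its group in 26 of the 54 members and exceeded the next highest over 1.5 times in Unc5b, Susd5, Arhgef19 and Cnksr3. In the cochlea at P16 such a library was replicate 1 for Grin2a, replicate 2 for Ddc and replicate 3 for Slc2a4 and Rtkn2. Among the 11 members with a transcript GC content of at least 55%, SOC replicate 3 at P16 was the highest in 9, at a median of 1.32 times the mean of the other two, and among the 13 members under 47% that SOC library was the highest in 1, at a median of 0.821. The part of this SOC library in the changes was not tested beyond leaving it out. The SOC counts appeared to have been joined from sets of libraries. P0 replicates 1 to 3 were in a set without a P16 library, and P16 replicate 3 stood alone. A further set held P0 replicate 4 and P16 replicates 1 and 2. Within it the ratio of P16 to P0 was 1.64 to 64.1 with a median of 3.68. Both P16 libraries of that set were over 1.5 times P0 replicate 4 in all 54 genes. The rule had fixed this, so it is no check on the joining.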

How the data were processed

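Counts per gene were deposited by the authors for 20 libraries, 3 per age of the cochlea and 4, 4 and 3 of the SOC. The methods of the study name STAR for both alignment to mm10 and counting, with a GENCODE annotation, whereas the submitters' processing notes name STAR 2.5.3a, HTSeq and DESeq2, so which tool made the counts is unclear. The GENCODE release and the strand setting are not given in the sources used here. Libraries held 20843679 to 33109083 counts. A 0 in a counted gene allows up to 3 counts, and such limits cover counting error only. The deposited counts appeared to have been joined from 4 sets of libraries, each without genes of low count in that set (the smallest highest count was 21). The joining was inferred from this lack of low counts. A 0 there can stand for up to 20 counts. Of the gene identifiers, 22637 (99.6%) were found in GENCODE M21, which gave mm10 positions, exon length and GC content.

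Members were taken by the rule on CPM, computed from the counts by column total. The members, gene lists and tests were chosen with earlier results of these data known, and lists and roles of members are not independent evidence. Tests used edgeR 4.0.16 in R 4.3.3 (TMM factors, quasi-likelihood F test, Benjamini-Hochberg adjustment over all genes tested) in 1 fit per organ, and in 1 fit of all 6 groups for E16. Tested genes exceeded 0.5 CPM in 3 or more libraries of any 1 group in the fit. A gene was called at an adjusted p under 0.01, a fold over 2.5 (the limits of the study, which used DESeq2) and no overlap of libraries, adapted from its criterion of a consistent direction. Standard errors were derived from the F statistic. DESeq2 1.42.0 was used as an alternative. The fits were tested on simulated counts. Genes were named by a rule on opposed change, level, list membership, distance from the threshold and E16 difference. Members of other roles were described as well and were grouped by role after their values were seen. Each library is a pool of animals, and p-values measure the spread between these libraries, which may be partly technical. SOC replicates of the same number at E16 and P0 deviated together (correlations of deviations 0.48 to 0.77), and the fit with the replicate number as a block left their counts of calls at 5 and 9. Alternatives were other scale factors, filters, thresholds of the rule, joined-table zeros, 1 joined table, a replicate block, a GC adjustment and each library left out in turn. Results of a few list genes are not reported here.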

Additional observations from a re-analysis of the deposited data

Results flagged for a closer look

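In the 48 groups of 4 libraries examined for the named members, 2 held a library apart from the others by Dixon's criterion, and chance flags about 1 in 20 groups. Both were Tnni3, the cardiac inhibitory troponin, in replicate 4 of the SOC, at 0.387 CPM at E16 and 0.34 CPM at P0, with 0 in the other 3 replicates at each age. Replicates 1 to 3 appeared to come from a joined table in which a 0 allows up to 20 counts, or 0.88 to 0.96 CPM. The values of replicate 4 lie within that limit of the others.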

How the results depend on the processing

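Fewer or more genes met the rule with other settings: 22 with ratios of 2, 140 with ratios of 1.2 and 103 when the SOC was represented by 1 joined table, and 54 to 72 when a library was left out, with 72 without cochlea P16 replicate 3. All 54 were among the 140 and the 103, which a lower ratio or fewer libraries to meet it all but fixed. Leaving a library out could likewise hardly lower the count, so these numbers are no check on membership. When the fold of 2.5 was tested itself (glmTreat) rather than applied after the test, the members called from E16 to P0 were 1 higher in the SOC and 0 higher and 0 lower in the cochlea, and those called from E16 to P16 were 21 higher and 3 lower in the SOC and 13 lower in the cochlea. Without SOC P0 replicate 4, 8 members were called higher at P0 in the SOC. Leaving out single libraries gave 5 to 8 higher and 8 to 9 lower in the SOC and 5 to 7 higher and 2 to 3 lower in the cochlea from E16 to P0, 34 to 37 and 5 in the SOC and 0 and 20 to 23 in the cochlea from E16 to P16, and 18 to 19 and 6 at E16. The remaining 160 counts stayed within 1.5 times and kept their direction, and of 360 values of single genes at E16 350 kept their call and 10 lost it (6 after the GC adjustment, which was added after the data were seen, and 4 with glmTreat, namely Rasd2, Calb1, Tpm2 and Igsf1). With the replicate number as a block, 33 members were called higher at P16 than at E16 in the SOC in place of 36 and 21 lower in the cochlea in place of 20, and it changed no other count. Outside the SOC from E16 to P0, correlations of same-numbered libraries were mixed (-0.20 to 0.40). These values do not decide whether those samples share more than a number. The cause of these shifts was not tested. Depth limits genes such as Tnni3, whose zeros allow up to 20 counts.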
